A study of Mus musculus with 13 samples.

Results

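The epithelial sodium channel (ENaC) and 5 genes known to act on it were followed across the cell types of the newborn and the adult mouse kidney by chromatin accessibility. The members were the subunit genes Scnn1a, Scnn1b and Scnn1g together with Sgk1, Nedd4l, Hsd11b2, Tsc22d3 and Prss8, 8 of the 55450 annotated genes. Each was described by the deposited peaks of open chromatin that overlapped its gene body or the 2000 bp upstream of it (mm10 coordinates, GENCODE annotation), which gave 201 of 300755 peaks: 9 for Scnn1a, 14 for Scnn1b, 5 for Scnn1g, 30 for Sgk1, 121 for Nedd4l, 3 for Hsd11b2, 14 for Tsc22d3 and 5 for Prss8. The members were listed by name.

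ENaC is the amiloride-sensitive channel of the apical membrane through which the last nephron segments take up sodium, and it is built from an α (Scnn1a), a β (Scnn1b) and a γ (Scnn1g) subunit. Aldosterone acts on it through the mineralocorticoid receptor, which induces the kinase Sgk1; Sgk1 phosphorylates the ubiquitin ligase Nedd4-2, the product of Nedd4l, and thereby keeps the channel at the cell surface. Hsd11b2 inactivates glucocorticoids so that aldosterone can occupy the receptor, Tsc22d3 encodes the steroid-induced protein GILZ, and Prss8 encodes prostasin, a membrane-anchored protease that activates the channel.

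The data were single-nucleus ATAC-seq (snATAC-seq) profiles of mouse kidneys, in which a transposase cuts open DNA and a nucleus is scored as open or not at each peak. There were 2 P0 samples (the preparation protocol gives 1-day-old pups, both kidneys), 1 sample of 3-week-old mice (P21) and 2 of 8-week-old mice (P56), the last 3 forming the adult group of the study. The labels and the preparation protocol of these samples name no allele, treatment or strain (wild type C57BL/6 mice are named for the single-cell RNA preparation). They do not say how many animals a sample held, so p-values cannot be read as measuring the spread between animals. P-values between stages within a cell type measure the spread between samples. Those between cell types and for interactions came from fits of all cell types together, with sample as a block that removes differences between whole samples. Such p-values measure how cell types varied within samples, with the spread pooled over the cell types. Very small values there still rest on the same few samples. P0 kidneys were lysed in less buffer than the adult ones, so stage and preparation cannot be told apart.

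Values are given on 2 scales. Gene activity is the number of open calls over all peaks of a gene, summed over the nuclei of a cell type in a sample and scaled to 1000000 open calls in that sum (CPM); it rises with the number and length of a gene's peaks, so levels of different genes are compared only per kb of peak. For a single peak the percentage of nuclei scored open is given, which also depends on how many peaks a nucleus yielded. Differences are log2 fold changes ± SE from edgeR's quasi-likelihood test, called at a Benjamini-Hochberg adjusted p under 0.05 over all genes or peaks tested. Cell types were clustered on the same nuclei, so p-values between cell types rank genes and are no independent test.

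The 5 samples held 28316 nuclei, from 3361 to 7129 each, with a median of 3371 to 6737 open peaks per nucleus. Of these, 27652 carried 1 of the 13 main deposited cell type names, and the smallest sum of 1 cell type in 1 sample held 39 nuclei. Between any 2 samples 24 to 73 cell barcodes coincided, 477 in all. By stage means the marker gene lists led in the cell type they were meant for, except for the connecting tubule and principal cell lists at P0. There the connecting tubule list was higher in the distal convoluted tubule (132 and 125 CPM) than in the connecting tubule (88.8 and 95.7). The principal cell list was higher in the connecting tubule (101 and 113) than in principal cells (86.6 and 99.0). In the cluster named nephron progenitor, its own list fell from a mean of 133 CPM at P0 to 29.3 CPM in the adult samples. In the 3-week sample that list was lower there than in podocytes. The loop of Henle list in this cluster went from 96.5 to 254 CPM. Its adult nuclei stayed in all sums of the 13 types, and the part of this shift in the results was not tested. The names of these P0 clusters and of the adult nephron progenitor cluster are therefore used as deposited.

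The α subunit gene Scnn1a (chr6:125320659-125344943, + strand) was open along the whole distal nephron but not there alone. At P0 the means of endothelium and immune cells lay above those of principal cells and the loop of Henle. In the adult, endothelium ranked next after principal cells and overlapped with them. Its adult gene activity was highest in the connecting tubule (CNT), with 179 CPM at 3 weeks and 149.8 and 159 CPM at 8 weeks. In the distal convoluted tubule (DCT) it was 186, 122 and 150.3 CPM in the same samples, and in the loop of Henle (LOH) 129, 139.8 and 167 CPM. The samples of these 3 segments overlapped, and so did those of intercalated cells (IC), at 141 ± 13.1 CPM (SD, n = 3), so no order among them could be given. Principal cells (PC) of the collecting duct lay lower at 111 ± 33.8 CPM (n = 3), all 3 samples below those of IC, although the difference of PC minus IC was not called (-0.30 ± 0.15, adjusted p = 0.207), and the proximal convoluted tubule (PCT) was lowest at 20.1 ± 4.23 CPM.

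The β subunit gene Scnn1b (chr7:121865038-121918514, + strand) had a narrower distribution. Adult CNT measured 155 CPM at 3 weeks and 168 and 135 CPM at 8 weeks. PC measured 51.5, 148 and 145 CPM, with the 3-week sample far below the other two. IC, which are not the classical site of this channel, measured 105, 111 and 104 CPM, within the range of PC. Adult DCT held 26.2 ± 6.04 CPM, LOH 6.74 ± 2.20 CPM and endothelium 3.60 ± 1.20 CPM (SD, n = 3 each). The principal cell marker list summed to 105, 84.6 and 114 CPM in adult IC against 217, 216 and 273 CPM in PC, and its part in the IC level of Scnn1b was not tested. Of the 14 Scnn1b peaks, 9 also lie within Cog7, which overlaps it, and cannot be assigned to one gene.

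The γ subunit gene Scnn1g (chr7:121734479-121768475, + strand) was highest in CNT and PC. Adult CNT measured 128, 104 and 105 CPM, above PC at 55.2, 85.1 and 86.5 CPM. IC followed at 38.3 ± 6.36 CPM and DCT at 29.3 ± 0.632 CPM (n = 3 each), and no sample of these 4 cell types overlapped with its neighbour in that order, although the difference of CNT minus PC was not called (0.45 ± 0.20, adjusted p = 0.117). Per kb of peak, the adult PC activity of the subunit genes was 20.9 CPM for Scnn1a, 17.9 for Scnn1b and 35.7 for Scnn1g.

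**Figure D1:**
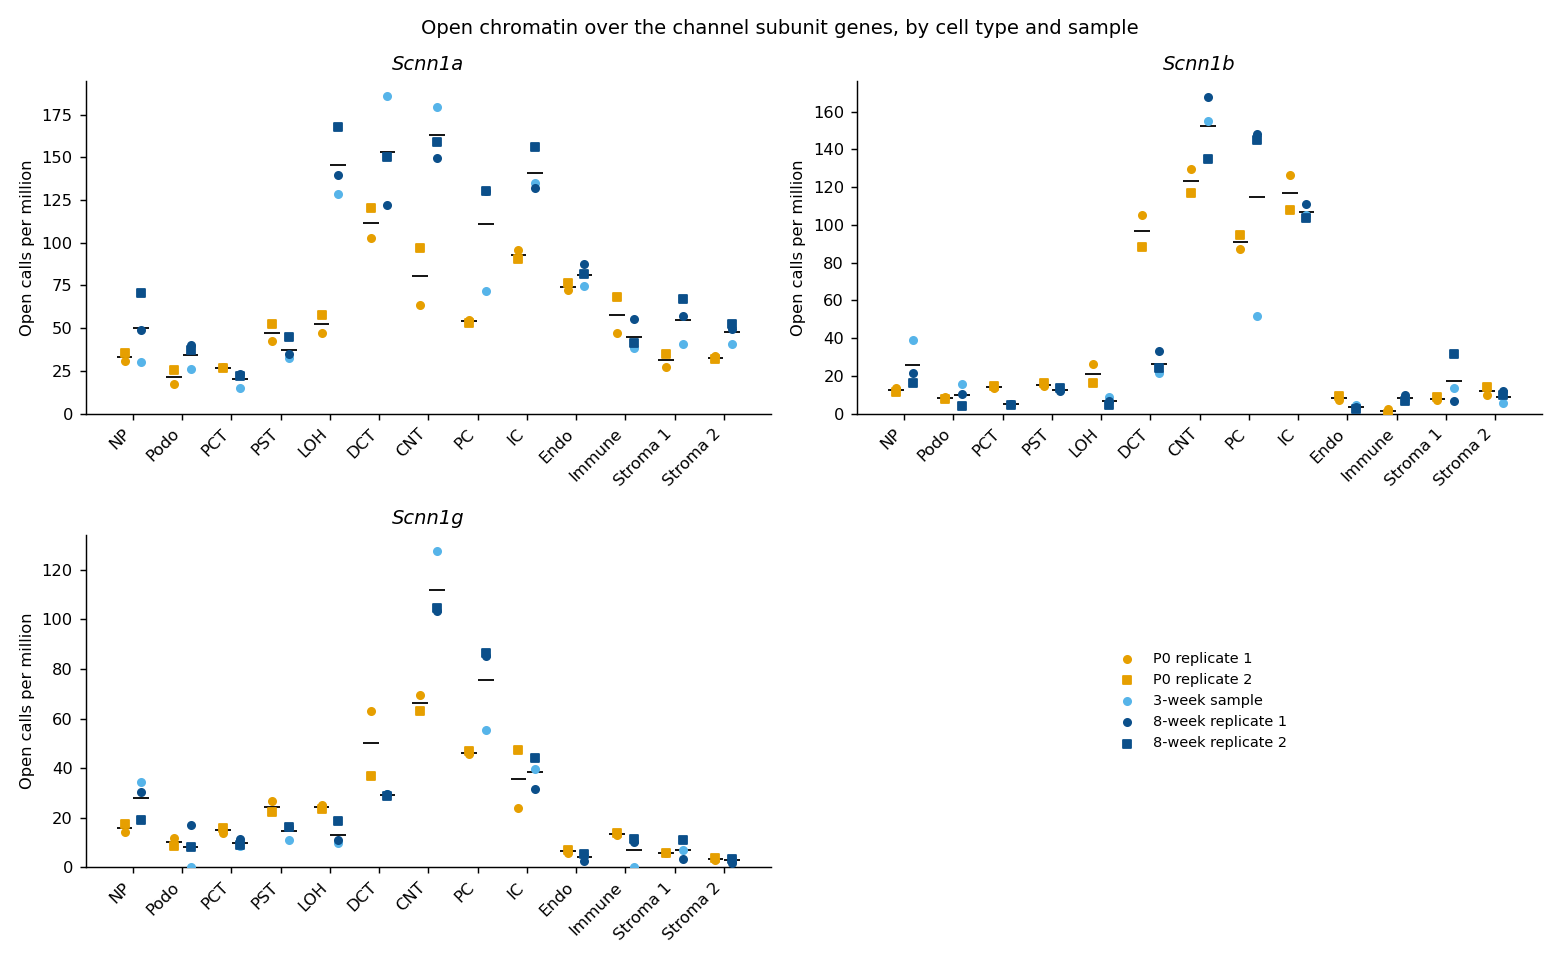
Gene activity (CPM, y axis) of Scnn1a, Scnn1b and Scnn1g in the 13 cell types (x axis); each point is 1 sample (orange P0, light blue 3-week, dark blue 8-week) and black bars are stage means. Scnn1b and Scnn1g stand out in CNT and PC, Scnn1b also in IC, while Scnn1a is spread over LOH, DCT, CNT, PC, IC and endothelium. In P0 DCT, Scnn1b reaches 105 and 88.4 against 21.6 to 33.0 in the adult samples.

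How the members differ between cell types was asked first by setting the mean of CNT and PC against that of the other cell types except DCT. Those other types include endothelium, immune cells, stroma and podocytes, so a member called higher need not be highest in CNT or PC within the nephron. They also include the cluster named nephron progenitor, whose marker shift between stages is given above. By adult means, IC, LOH and both proximal segments lay above CNT and PC for Nedd4l, and LOH and both proximal segments for Prss8. In the adult samples 6 of 8 members were higher and none was called lower, with 36.5% of all genes called in either direction. The difference was 3.45 ± 0.13 (adjusted p = 4.43e-24) for Scnn1b, 3.05 ± 0.14 (adjusted p = 4.87e-22) for Scnn1g and 2.22 ± 0.14 (adjusted p = 2.46e-17) for Hsd11b2. Scnn1a differed by 1.20 ± 0.09 (adjusted p = 8.11e-15), Prss8 by 0.58 ± 0.12 (adjusted p = 0.000117) and Nedd4l by 0.20 ± 0.07 (adjusted p = 0.0345), the last falling short of the threshold without 8-week replicate 1 (0.13) or replicate 2 (0.26). Sgk1 (0.04 ± 0.08, adjusted p = 0.749) and Tsc22d3 (-0.16 ± 0.10, adjusted p = 0.225) were not called. At P0, where 34.7% of genes were called, the same 6 members were higher, with 3.11 for Scnn1b, 2.13 for Scnn1g, 1.65 for Prss8, 1.15 for Hsd11b2, 0.60 for Scnn1a and 0.26 for Nedd4l, and Sgk1 was lower (-0.52 ± 0.07, adjusted p = 8.85e-11).

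Between neighbouring adult segments 13 of 32 tests of members were called. That count fell in thinned nuclei and with any adult sample left out, as given below. From PC to CNT, where 15.6% of genes were called, Scnn1a was higher in CNT by 0.42 ± 0.14 (adjusted p = 0.0390) and Sgk1 lower (-0.83 ± 0.15, adjusted p = 5.31e-05). From CNT to DCT the background was 4.32%, and Scnn1b (-2.52 ± 0.23, adjusted p = 4.05e-10), Scnn1g (-1.93 ± 0.22, adjusted p = 6.05e-08) and Hsd11b2 (-1.33 ± 0.24, adjusted p = 0.000215) were lower in DCT, whereas Scnn1a was not called (-0.12 ± 0.14, adjusted p = 0.802). From DCT to LOH (10.6% called), Scnn1b was lower again (-2.07 ± 0.32, adjusted p = 4.82e-06) and so was Scnn1g (-1.02 ± 0.25, adjusted p = 0.00376), Sgk1 was lower (-0.46 ± 0.15, adjusted p = 0.0372) and Nedd4l higher by 0.43 ± 0.13 (adjusted p = 0.0227). The β and γ subunit genes thus stepped down at both boundaries, and no such step was called for the α subunit gene. PC exceeded IC (12.2% called) in Scnn1g by 1.01 ± 0.23 (adjusted p = 0.00149), in Hsd11b2 by 0.99 ± 0.23 (adjusted p = 0.00180) and in Sgk1 by 0.56 ± 0.14 (adjusted p = 0.00523), Nedd4l was lower in PC (-0.57 ± 0.13, adjusted p = 0.00197), and Scnn1b was not called (0.18 ± 0.20, adjusted p = 0.688).

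The 4 sequences below are stretches, outside annotated exons, of peaks of the subunit genes and Hsd11b2. Each peak was among the 2 of its gene that were most open in adult PC. They were read from the + strand of mm10 (GRCm38), and all 4 genes lie on that strand. Capitals mark letters of the searched motifs (AGAACA or its reverse complement TGTTCT, one arm of the steroid receptor element, and GCCNNNGGC, the AP-2 motif); a match is a description and not a shown binding site.
Scnn1a, ending 1 bp before the first annotated start, chr6:125320359-125320658: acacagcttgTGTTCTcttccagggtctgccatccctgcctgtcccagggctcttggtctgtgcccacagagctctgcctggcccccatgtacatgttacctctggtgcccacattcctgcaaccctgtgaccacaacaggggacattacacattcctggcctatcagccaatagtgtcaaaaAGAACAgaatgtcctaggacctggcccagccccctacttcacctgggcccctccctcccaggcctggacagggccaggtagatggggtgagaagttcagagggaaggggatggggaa
Scnn1b, intron, chr7:121874604-121874903: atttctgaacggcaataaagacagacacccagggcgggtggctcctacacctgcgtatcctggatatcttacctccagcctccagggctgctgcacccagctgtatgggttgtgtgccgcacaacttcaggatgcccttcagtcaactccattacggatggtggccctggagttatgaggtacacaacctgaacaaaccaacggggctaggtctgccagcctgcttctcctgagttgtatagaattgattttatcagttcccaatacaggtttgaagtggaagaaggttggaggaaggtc
Scnn1g, intron, chr7:121737486-121737785: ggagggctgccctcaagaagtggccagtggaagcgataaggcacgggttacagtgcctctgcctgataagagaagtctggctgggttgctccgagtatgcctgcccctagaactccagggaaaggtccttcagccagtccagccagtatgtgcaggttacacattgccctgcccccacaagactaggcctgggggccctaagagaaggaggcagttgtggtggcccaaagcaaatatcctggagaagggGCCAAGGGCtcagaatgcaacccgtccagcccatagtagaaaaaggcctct
Hsd11b2, ending 1 bp before the annotated start, chr8:105518455-105518754: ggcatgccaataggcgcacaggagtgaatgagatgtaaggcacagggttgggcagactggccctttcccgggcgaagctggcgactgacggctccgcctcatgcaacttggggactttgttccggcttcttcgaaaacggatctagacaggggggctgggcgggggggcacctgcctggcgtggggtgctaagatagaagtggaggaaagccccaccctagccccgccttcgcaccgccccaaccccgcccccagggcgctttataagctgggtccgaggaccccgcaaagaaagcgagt

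The Scnn1b sequence belongs to an intronic peak (chr7:121874203-121875305) whose centre lies 9716 bp downstream of the first start. The share of CNT nuclei with it open was 34.1% and 37.6% at P0, 24.1% at 3 weeks and 26.9% and 31.6% at 8 weeks. In PC the percentages were 28.4% and 30.3% at P0, 14.6% at 3 weeks and 22.9% and 34.0% at 8 weeks, and in IC 32.5% and 33.9% at P0, 19.1% at 3 weeks and 15.4% and 25.0% at 8 weeks. In these 3 cell types every sample held open nuclei, from 14.6% to 37.6%. In DCT the share was 25.5% and 15.8% at P0, 1.98% at 3 weeks and 2.28% and 4.15% at 8 weeks. The DCT nuclei had medians of 8025 and 7283 open peaks at P0, 3270 at 3 weeks and 2549 and 5611.5 at 8 weeks. No direction between stages was therefore read from these percentages. In LOH it was 5.51% and 2.61% at P0, 0% at 3 weeks and 0.0960% and 0.442% at 8 weeks, the 3-week value being 0 of 394 nuclei, which allows a share of up to 0.761%. Adult PCT, a segment not known for the channel, had 0.229% ± 0.136.

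By the count test the adult difference of this Scnn1b peak was 5.29 ± 0.23 (adjusted p = 3.11e-72) for CNT and PC against the other types, -3.14 ± 0.37 (adjusted p = 1.05e-12) for DCT minus CNT and -3.34 ± 0.65 (adjusted p = 1.32e-05) for LOH minus DCT. The peak was picked for its openness in adult PC and a called segment difference, so these values describe it and are no independent test. In LOH it fell from P0 to adult (-3.06 ± 0.64, adjusted p = 0.000297). When each nucleus was thinned to 1000 open peaks, the mean percentages became 0.652% at P0 and 0.0705% in adult LOH, and 5.13% and 4.81% in PC. The peak over the Scnn1b start (chr7:121864833-121865393) had the same order of segments, with adult differences of -1.88 ± 0.43 (adjusted p = 0.00137) for DCT minus CNT and -2.22 ± 0.56 (adjusted p = 0.00163) for LOH minus DCT.

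The Scnn1g sequence comes from a peak (chr7:121737384-121737889) centred 3157 bp downstream of the start. The share of open CNT nuclei was 8.15% and 7.92% at P0, 9.64% at 3 weeks and 10.9% and 16.5% at 8 weeks. In PC it was 4.82% and 5.71% at P0, 4.85% at 3 weeks and 9.02% and 17.0% at 8 weeks, with the second 8-week sample highest in both. In IC the percentages were 0% and 8.93% at P0, 2.13% at 3 weeks and 0.905% and 2.66% at 8 weeks, and in LOH no sample passed 0.663%. Of the subunit peaks described, this one differed most between CNT and PC and the other adult types, by 5.58 ± 0.35 (adjusted p = 2.82e-43). It was also the one subunit peak described that was called higher in adult PC than in IC, by 2.62 ± 0.57 (adjusted p = 0.000183), and PC rose with age by 1.56 ± 0.35 (adjusted p = 0.00166). This peak was picked for its openness in adult PC and for called stage and segment differences, so these values too are no independent test. The peak over the Scnn1g start (chr7:121734237-121734982) was less confined, with PC shares of 24.1% and 25.1% at P0, 21.4% at 3 weeks and 15.8% and 34.4% at 8 weeks and LOH shares of 12.8% and 15.3% at P0, 3.55% at 3 weeks and 2.88% and 8.29% at 8 weeks.

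The Scnn1a sequence lies in the peak over its first start (chr6:125320191-125320917). The share of LOH nuclei with this peak open was 6.61% and 10.7% at P0, 19.0% at 3 weeks and 10.7% and 31.3% at 8 weeks. PC measured 7.11% and 11.1% at P0, 12.6% at 3 weeks and 10.9% and 25.0% at 8 weeks, and CNT 10.4% and 18.8% at P0, 26.5% at 3 weeks and 17.7% and 37.2% at 8 weeks. In LOH the first 8-week sample, which had the fewest open peaks per nucleus, was at the level of the second P0 sample, and the other adult samples were higher. On the CPM scale the peak rose with age by 2.30 ± 0.28 (adjusted p = 2.56e-07) in LOH, 1.25 ± 0.27 (adjusted p = 0.00169) in CNT and 1.34 ± 0.27 (adjusted p = 0.000608) in PC. Over the other Scnn1a starts, the peak chr6:125321210-125322065 rose by 2.03 ± 0.25 (adjusted p = 2.88e-07), 1.08 ± 0.26 (adjusted p = 0.00381) and 1.38 ± 0.25 (adjusted p = 0.000228) in the same 3 types.

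**Figure D2:**
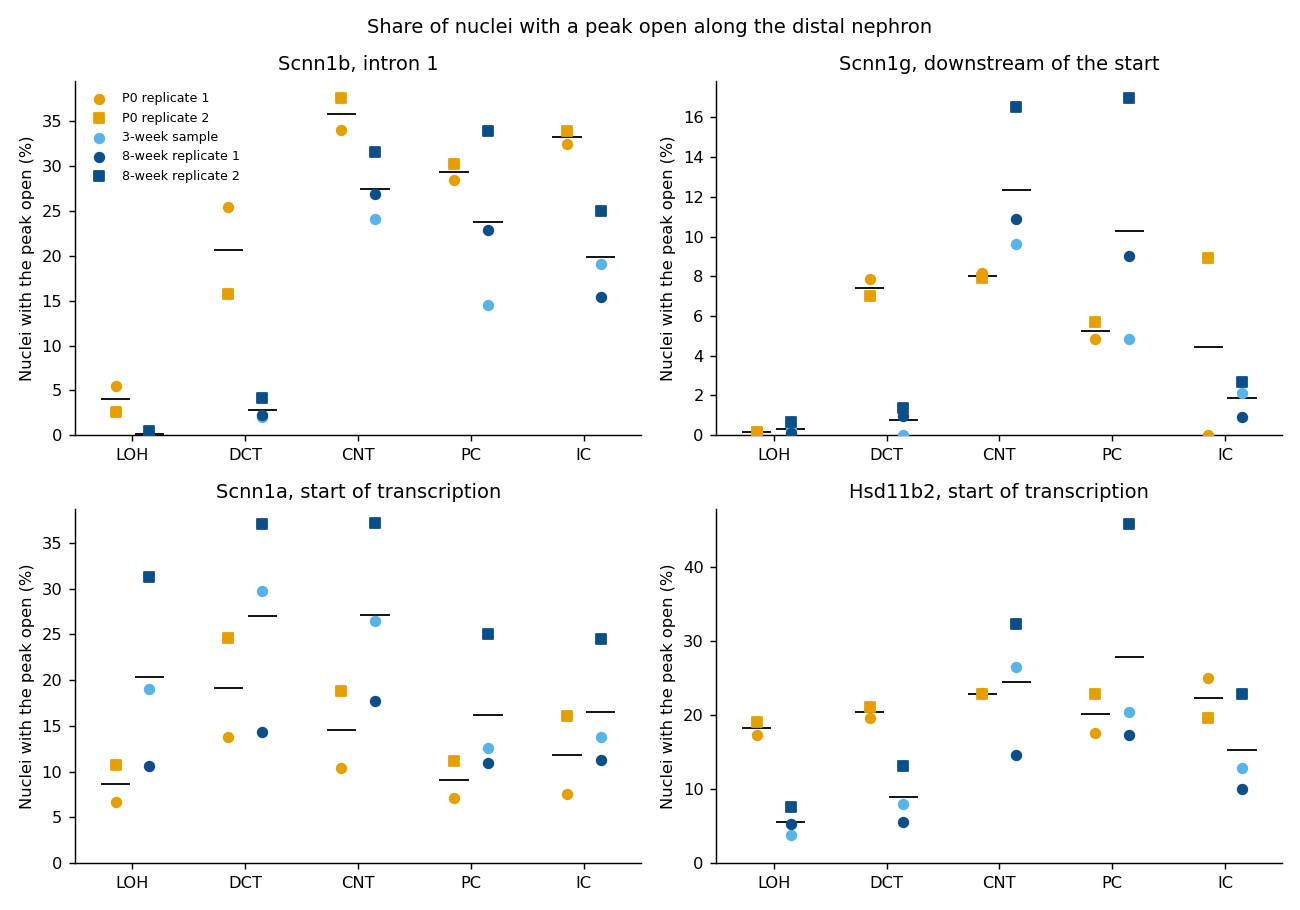
Percentage of nuclei with the peak open (y axis) in LOH, DCT, CNT, PC and IC (x axis) at the intronic Scnn1b peak, the Scnn1g peak downstream of its start, the Scnn1a start and the Hsd11b2 start; points are the 5 samples, coloured by age, and black bars the stage means. The Scnn1b and Scnn1g peaks are near 0 in adult LOH and at most 4.15% in adult DCT, whereas the Scnn1a start is open in 10.7% to 31.3% of adult LOH nuclei.

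The next comparison asked how the subunit genes changed between P0 and adult. Scnn1a rose in LOH from 47.4 and 57.8 CPM to 129, 139.8 and 167 CPM, by 1.54 ± 0.16 (adjusted p = 4.87e-05). It rose in CNT by 0.95 ± 0.18 (adjusted p = 0.00103) and in PC by 1.07 ± 0.18 (adjusted p = 0.000523), where the P0 samples had 54.9 and 52.9 CPM and the adult ones 71.7, 131 and 130.2 CPM. In all 3 segments every adult sample lay above both P0 samples, and the CNT call was lost without the first P0 sample (0.71). DCT, with 103 and 120.4 CPM at P0, was not called (0.32 ± 0.20, adjusted p = 0.419). The rise of Scnn1a was not particular to the tubule. It was also called in the first stromal cluster (0.74 ± 0.23, adjusted p = 0.0169) and the second (0.52 ± 0.16, adjusted p = 0.0208).

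The markers of these clusters also moved between the stages. In PC the principal cell list summed to 86.6 and 99.0 CPM at P0 and 217, 216 and 273 CPM in the adult samples, with all 4 genes higher in every adult sample, and the intercalated list to 71.7 and 57.8 CPM at P0 and 29.4, 25.6 and 28.1 CPM in the adult samples, with 2 of 4 higher at P0. In CNT the connecting tubule list summed to 88.8 and 95.7 CPM at P0 and 375, 262 and 292 CPM in the adult samples, with all 3 genes higher in the adult samples. The distal convoluted tubule list in CNT went from 107 and 108 to 519, 396 and 567 CPM, likewise with all 3 genes higher. In LOH the list of that segment summed to 233 and 264 CPM at P0 and 776, 671 and 733 CPM in the adult samples, again with all 3 genes higher in the adult samples. In PCT the list of that segment summed to 513 and 536 CPM at P0 and 841, 614 and 821 CPM in the adult samples. The proximal straight tubule list in PCT went from 115 and 115 to 72.8, 78.6 and 62.8 CPM. The part of these shifts in the rises of the members in PC, CNT, LOH and PCT was not tested.

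Scnn1b fell with age in DCT, LOH and PCT. In DCT it fell from 105 and 88.4 CPM at P0 to 21.6, 33.0 and 24.0 CPM (-1.97 ± 0.26, adjusted p = 0.00117). In LOH it fell from 26.2 and 16.1 CPM to 8.96, 6.69 and 4.56 CPM (-1.68 ± 0.34, adjusted p = 0.00198), and it also fell in PCT (-1.36 ± 0.26, adjusted p = 0.00481), a call lost without either P0 sample (-1.40 and -1.32). Without the first P0 sample the DCT difference was -1.76 and the LOH difference -1.21, neither past the threshold. In PC the value was 0.40 ± 0.23 (adjusted p = 0.200), the 3-week sample being the lowest of all 5 at 51.5 CPM. In DCT the principal cell marker list summed to 71.1 and 59.0 CPM at P0 and 21.6, 23.1 and 32.0 CPM in the adult samples, with 2 of its 4 genes, Aqp2 and Aqp3, above every adult sample in both P0 samples, and the defining marker Fxyd4 at 0 in 2 adult samples. The connecting tubule list there, given above for P0, had an adult mean of 103 CPM (n = 3), with the 3-week sample above both P0 samples at 135 CPM. In LOH the connecting tubule list summed to a mean of 26.6 CPM at P0 (n = 2) and 8.96, 8.10 and 12.5 CPM in the adult samples, with all 3 genes higher at P0, and the intercalated list to 67.5 and 64.9 CPM at P0 and 29.4, 20.8 and 23.7 CPM in the adult samples, with 2 of 4, Slc26a4 and Slc4a1, higher at P0. The principal cell list in LOH overlapped between stages. In PCT the intercalated list summed to 89.3 and 88.2 CPM at P0 and 42.6, 63.6 and 40.3 CPM in the adult samples. The part of these lists in the levels of Scnn1b in DCT, LOH and PCT, and of Scnn1g and Hsd11b2 in LOH, was not tested.

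Scnn1g rose in CNT and PC and fell in LOH. In CNT it rose from 69.5 and 63.0 CPM to 128, 104 and 105 CPM, by 0.67 ± 0.17 (adjusted p = 0.00966). In PC it rose by 0.73 ± 0.18 (adjusted p = 0.00612), from 45.6 and 46.9 CPM to 55.2, 85.1 and 86.5 CPM. In LOH it fell (-0.73 ± 0.28, adjusted p = 0.0430). The stages did not overlap in any of these 3 segments. After thinning of the nuclei the CNT value turned to -0.32, and none of the 3 was past the threshold. All 3 calls were also lost without either P0 sample, with values of 0.78 and 0.61 in CNT, 0.69 and 0.70 in PC and -0.68 and -0.82 in LOH. The PC call was lost as well without the second 8-week sample (0.63), and the LOH call without the 3-week sample (-0.58) or the first 8-week sample (-0.49).

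Sgk1 (chr10:21882184-21999903, + strand), the kinase gene, was not most open in the tubule. Adult endothelium measured 263, 265 and 235 CPM and immune cells 243 ± 81.9 CPM (n = 3). Among the adult tubule cells PC came first, with 79.2 and 76.1 CPM at P0 and 219, 168 and 157 CPM in the adult samples. This rise of 1.14 ± 0.15 (adjusted p = 7.1e-05) was the one stage difference in PC that stayed past the threshold under every alternative run. In LOH, Sgk1 had 76.2 ± 3.36 CPM at P0 (n = 2) and 60.0 ± 14.6 CPM in the adult (n = 3), a difference of -0.30 ± 0.19 (adjusted p = 0.196). Of its 8 single peaks tested there, 5 were lower in the adult samples and 0 higher, with a median of -1.99. Of all 89743 peaks tested between stages in LOH, 48761 were called. Sgk1 rose in PCT by 0.68 ± 0.11 (adjusted p = 0.00256), a call lost without either P0 sample (0.70 and 0.67). Of its 9 single peaks tested in PCT, 2 were higher and 2 lower, with a median of -0.45. Among all 115761 peaks tested between stages in PCT, 39222 were called.

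The Sgk1 gene has several annotated starts, and the accessibility lay at the downstream one. The peak over the downstream starts (chr10:21993225-21995020) had PC shares of 27.9% and 32.9% at P0, 54.4% at 3 weeks and 28.6% and 66.5% at 8 weeks, and it rose by 1.13 ± 0.15 (adjusted p = 1.32e-05). Thinned to 1000 open peaks, the mean went from 5.21% to 12.2%. The first 8-week sample had 28.6% where the second had 66.5%, while their activities of the whole gene were 168 and 157 CPM, and their PC nuclei had medians of 2839.5 and 6027.5 open peaks. The peak over the most upstream start (chr10:21882181-21882738) was open in at most 3.96% of nuclei in any sample of LOH, DCT, CNT, PC or IC. In endothelium the downstream peak was open in 47.6% of P0 and 34.6% of adult nuclei, but in 6.82% and 12.7% after thinning, so no direction was read from the percentages.

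Nedd4l (chr18:64887705-65217828, + strand), whose product removes the channel from the membrane, was most open in IC at both stages. IC measured 778 and 693 CPM at P0 and 904, 880.0 and 920.4 CPM in the adult samples, above every sample of the other 12 cell types at the same stage. PC measured 406 and 388 at P0, 543 at 3 weeks and 657 and 630.4 at 8 weeks, and LOH 383 and 359.6 at P0, 596 at 3 weeks and 687 and 613 at 8 weeks (CPM). Both rose with age, PC by 0.58 ± 0.14 (adjusted p = 0.00690) and LOH by 0.84 ± 0.13 (adjusted p = 0.000342), and the PC call was lost without either P0 sample (0.62 and 0.52). Nedd4l was also called higher in the cluster named nephron progenitor (1.17 ± 0.14), podocytes (0.42 ± 0.14), the proximal straight tubule (0.47 ± 0.11) and the first stromal cluster (0.39 ± 0.14). The part of the marker shift in the nephron progenitor cluster in its Nedd4l rise was not tested. This gene is 330124 bp long and holds 121 of the 201 peaks, of which 17 are shared with A330084C13Rik or AC102333.1.

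The single Nedd4l peaks described here were chosen for their openness or their called change and do not stand for the gene, whose peaks had a median adult difference of PC minus IC of -0.30 over the 35 tested. An intronic peak (chr18:65032671-65033102, 145181 bp downstream of the first start) had IC shares of 17.5% and 25.0% at P0, 22.3% at 3 weeks and 14.5% and 22.9% at 8 weeks and PC shares of 1.27% and 1.14% at P0, 2.91% at 3 weeks and 0.376% and 0.943% at 8 weeks. Its adult difference of PC minus IC was -4.11 ± 0.57 (adjusted p = 6.73e-10), and its thinned adult means were 3.63% in IC and 0% in PC. A second one (chr18:65095676-65096176) had IC shares of 22.5% and 19.6% at P0, 11.7% at 3 weeks and 10.4% and 14.9% at 8 weeks. In LOH its shares were 0.787% and 0.767% at P0, 4.82% at 3 weeks and 5.18% and 7.51% at 8 weeks, so it was shared by IC at both stages and by LOH in the adult samples, with a rise of 4.03 ± 0.41 (adjusted p = 1.8e-08) in LOH. In PC another intronic peak (chr18:65070973-65071612) rose from 1.27% and 1.14% to 6.80%, 7.52% and 11.3%, by 3.30 ± 0.47 (adjusted p = 2.05e-05). The peak over the first Nedd4l start (chr18:64887065-64888357) was open in all 5 of these segments, with 35.2% ± 17.3 of adult PC and 32.8% ± 12.1 of adult IC nuclei (SD, n = 3).

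Hsd11b2 (chr8:105518755-105523988, + strand) had its highest adult levels in PC and CNT, like the β and γ subunit genes. Adult PC measured 46.0, 68.8 and 83.0 CPM, and CNT, with 76.1, 54.3 and 61.1 CPM, overlapped with PC. At P0 the means of LOH, DCT, CNT, PC and IC lay between 30.6 CPM in LOH and 42.1 CPM in CNT, and the PCT was lower at 12.2 CPM (n = 2). From P0 to adult it rose in PC, where P0 had 32.9 and 34.1 CPM, by 1.00 ± 0.22 (adjusted p = 0.00297), a call lost without either P0 sample (0.96 and 0.98). It fell in LOH from 30.9 and 30.4 CPM to 14.1, 21.8 and 18.7 CPM (-0.64 ± 0.21, adjusted p = 0.0242), a call lost without either P0 sample, the 3-week sample or the second 8-week sample (-0.60, -0.68, -0.52 and -0.65).

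At the Hsd11b2 start, the peak chr8:105518329-105519505, to which the printed sequence belongs, rose in PC. Its PC shares were 17.5% and 22.9% at P0, 20.4% at 3 weeks and 17.3% and 45.8% at 8 weeks. In LOH its shares were 17.3% and 19.0% at P0, 3.81% at 3 weeks and 5.28% and 7.51% at 8 weeks. On the CPM scale the peak rose in PC by 0.96 ± 0.20 (adjusted p = 0.00104), and in LOH its difference was -0.51 ± 0.26 (adjusted p = 0.0881), not called. The other Hsd11b2 peak tested in LOH (chr8:105523035-105523404) was not called either (-0.36 ± 0.51, adjusted p = 0.564). In PC the thinned means went from 1.77% to 5.96%.

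Tsc22d3 (chrX:140539528-140600659, - strand), the GILZ gene, rose with age in more cell types than any other member, 9 of the 13 tested. Of all gene tests over the 13 types 25.2% were called and 11.1% were higher. The CNT call of Tsc22d3 (0.69 ± 0.25, adjusted p = 0.0494) was lost without either P0 sample. In PC the gene measured 54.9 and 56.6 CPM at P0 and 101, 82.8 and 87.9 CPM in the adult samples, a rise of 0.63 ± 0.14 (adjusted p = 0.00291). That rise turned to -0.21 after thinning and lost its call without either P0 sample (0.62 and 0.64). In PCT it rose by 1.47 ± 0.14 (adjusted p = 0.000237), from 40.3 and 34.1 CPM to 90.3, 95.8 and 95.3 CPM, a call that held under every alternative run. Endothelium had the highest mean at both stages, 71.1 ± 1.17 CPM at P0 (n = 2) and 119 ± 7.19 CPM in the adult (n = 3), although in the adult it overlapped with podocytes and immune cells. The peak over its downstream starts (chrX:140541907-140543718) rose in PC by 0.62 ± 0.24 (adjusted p = 0.0470), and an intronic one (chrX:140558230-140558917) rose in PCT by 3.53 ± 0.40 (adjusted p = 7.79e-05).

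Prss8 (chr7:127925716-127930104, - strand), the prostasin gene, was open along the whole tubule. Adult PCT was highest, at 184, 141 and 182 CPM, and PC measured 112, 103 and 122 CPM. In PC the stage difference was 0.35 ± 0.13 (adjusted p = 0.0529), just short of the threshold, whereas Prss8 rose in LOH by 0.86 ± 0.15 (adjusted p = 0.000818) and in PCT by 0.69 ± 0.13 (adjusted p = 0.00484), the PCT call being lost without either P0 sample (0.65 and 0.73). It also rose in the first stromal cluster, from 8.89 and 10.6 to 112, 33.6 and 68.9 CPM (2.72 ± 0.32, adjusted p = 1.76e-06). The PCT marker list moved with it there, summing to 49.7 and 67.1 CPM at P0 and 347, 94.1 and 246 CPM in the adult samples, and its part in the stromal Prss8 level was not tested. The most open Prss8 peak (chr7:127925340-127926699), at the 3' end, is shared with Kat8, and no deposited peak covered the annotated Prss8 start, the nearest one (chr7:127930123-127930458) lying just upstream.

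**Figure D3:**
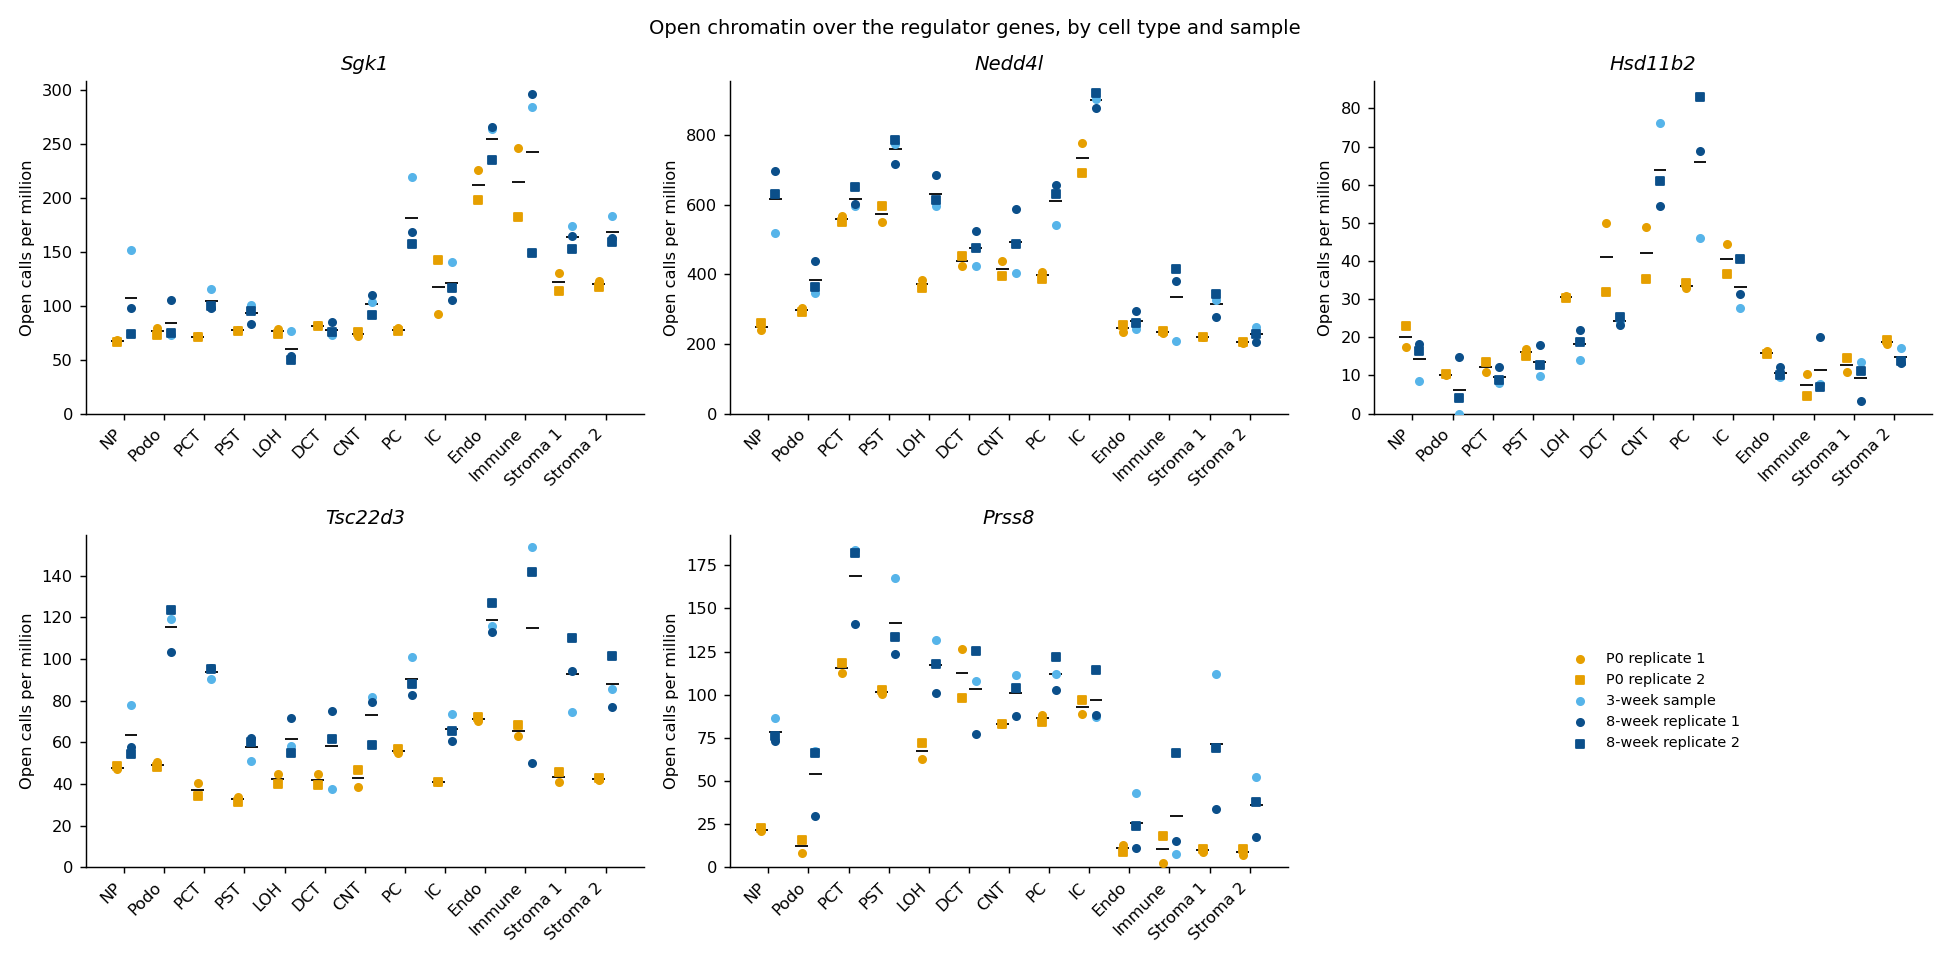
Gene activity (CPM, y axis) of Sgk1, Nedd4l, Hsd11b2, Tsc22d3 and Prss8 in the 13 cell types (x axis), drawn as for the subunits. Hsd11b2 is highest in adult CNT and PC, Nedd4l in IC, Prss8 in PCT, and Sgk1 and Tsc22d3 in endothelium, immune cells and, for Tsc22d3, podocytes.

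Over the 13 cell types 91 stage tests of members were made, of which 34 were higher and 5 lower in the adult samples, 39 called in all, with 25.2% of all gene tests called. In PC 6 of 8 members were higher (background 29.7%), in CNT 3 of 8 (Scnn1a, Scnn1g and Tsc22d3; 25.0%), and in LOH 4 of 8 were higher and 3 lower (52.1%). In PCT Prss8, Sgk1 and Tsc22d3 were higher and Scnn1b lower (28.4%), and in DCT Scnn1b alone was called (5.55%). In IC edgeR called 0 of 8 members (0.998%), with 2, Scnn1a and Tsc22d3, at an unadjusted p under 0.05, and DESeq2 called 0 of the 4 it adjusted. Among immune cells 0 of 4 tested members were called by either tool, Tsc22d3 having an unadjusted p under 0.05, and edgeR called 0 of all 10337 genes there (0.0%), with 1036 at an unadjusted p under 0.05. With nuclei thinned to 1000 open peaks 2 of the 6 PC calls remained past the threshold, Sgk1 and Hsd11b2, and with P0 replicate 1 left out 2, Scnn1a and Sgk1, the same 2 as with P0 replicate 2 left out. Over all cell types the 39 calls made with all 5 samples became 14 when P0 replicate 1 was left out and 17 when P0 replicate 2 was.

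Whether a stage difference itself differed between segments was tested as an interaction. Relative to LOH, the change in PC was larger for Scnn1b by 2.14 ± 0.31 (adjusted p = 7.4e-07), Scnn1g by 1.45 ± 0.26 (adjusted p = 3.03e-05), Sgk1 by 1.51 ± 0.18 (adjusted p = 1.99e-09) and Hsd11b2 by 1.69 ± 0.24 (adjusted p = 3.77e-07), 4 of 8 members against 12.6% of all genes. Relative to DCT the same 4 were called (1.59% of genes): Scnn1b by 2.22 ± 0.34 (adjusted p = 2.4e-05), Scnn1g by 1.45 ± 0.36 (adjusted p = 0.0177), Sgk1 by 1.08 ± 0.26 (adjusted p = 0.0151), which turned to -0.49 in thinned nuclei, and Hsd11b2 by 1.69 ± 0.38 (adjusted p = 0.00586). Of these DCT calls, those of Scnn1g (1.01 and 1.84), Sgk1 (1.14 and 1.10) and Hsd11b2 (1.33 and 2.04) were lost without either P0 sample, and those of Scnn1g (1.33) and Hsd11b2 (1.58) also without the second 8-week sample. In thinned nuclei none of the 4 DCT calls was past the threshold, that of Scnn1b included, and the LOH call of Scnn1g was lost. The change of Scnn1a was not called different between PC and LOH (-0.47 ± 0.18, adjusted p = 0.0784). Relative to CNT 0 of 8 were called by edgeR or by DESeq2 (2.71% of genes), with Sgk1 at an unadjusted p under 0.05 (0.67 ± 0.22, adjusted p = 0.0898).

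**Figure D4:**
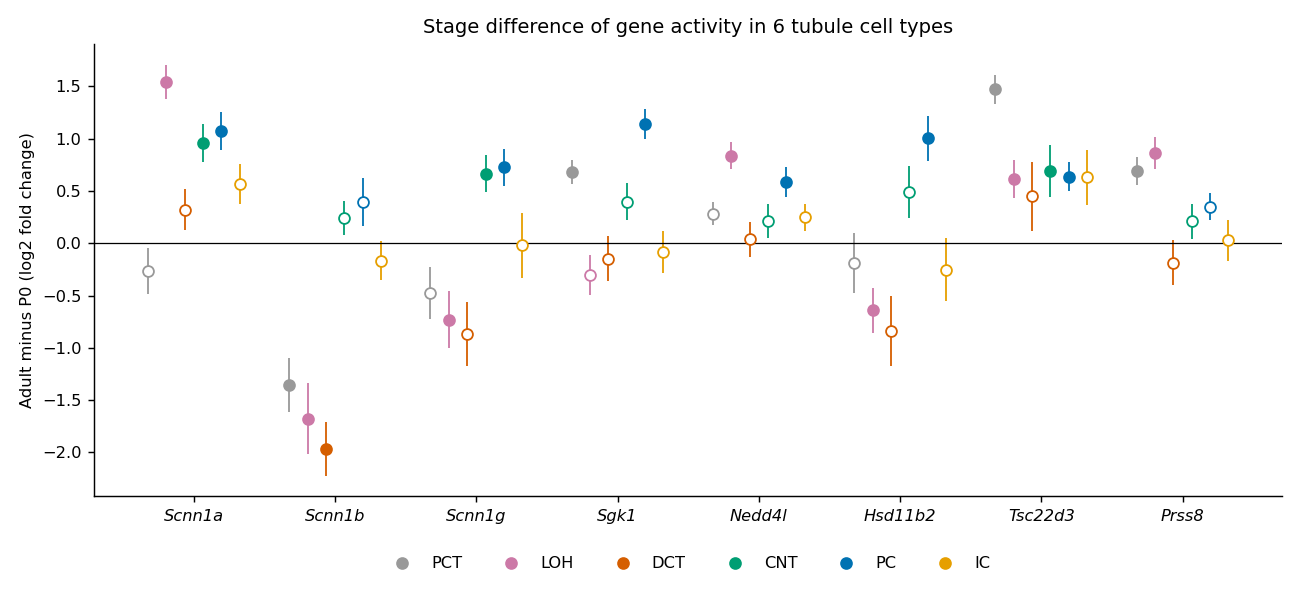
Adult minus P0 difference in gene activity (log2 fold change, with SE as error bars) of the 8 members in PCT, LOH, DCT, CNT, PC and IC; filled points passed an adjusted p of 0.05. Scnn1b, Scnn1g and Hsd11b2 lie below 0 in LOH and above 0 in PC, where Scnn1b was not called, while Scnn1a lies above 0 in both.

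At the level of single peaks 442 stage tests over 145 of the 201 peaks were possible, and 130 were higher and 40 lower in the adult samples, 170 called against a background of 34.0% of all peak tests. In PC 17 of 45 tested peaks were higher and 1 lower (29.4%). None of these calls remained in thinned nuclei, where few could be tested, or with no filter on low counts. The higher ones were 8 of 22 tested in Nedd4l, 2 of 3 in Scnn1a, 2 of 4 in Scnn1b, 1 of 2 in Scnn1g, 2 of 4 in Sgk1, 1 of 2 in Hsd11b2 and 1 of 4 in Tsc22d3, and for Prss8 edgeR and DESeq2 each called 0 of 4, with 1 at an unadjusted p under 0.05. The largest among those of Scnn1b lay over a coding exon shared with Cog7 (chr7:121917830-121918174) and had PC shares of 0.254% and 0.857% at P0, 2.91% at 3 weeks and 2.63% and 10.8% at 8 weeks, a rise of 3.71 ± 0.74 (adjusted p = 0.000603). In IC edgeR and DESeq2 each called 0 of 21 peaks (background 0.108%), with 2 at an unadjusted p under 0.05, and in DCT each called 0 of 11 (3.74%), with 1. Between adult segments 54 of 268 tests were called, 22 higher and 32 lower (11.0%), and for CNT and PC against the other types 26 of 67 peaks were higher and 4 lower (35.9%).

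The percentage of open nuclei and the CPM did not always point the same way. Over the peaks described, the adult mean percentage was lower than the P0 mean at 120 of 205 pairs of peak and segment, and at 55 of 205 after thinning. For that reason directions between stages were taken from CPM and not from percentages. CPM is not free of depth either, since a nucleus is scored only as open or not at each peak. Some called differences turned in thinned nuclei, as given below.

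The central 300 bp of the peaks were searched on both strands for letters of steroid receptor and tubule factor motifs. The full palindrome of AGAACA and TGTTCT spaced by 3 bases was in 0 of the 201 peaks and in 49 of 300693 of all peaks on mm10 chromosomes, 0.0163%. The single arm AGAACA was in 51 (25.4%), against 25.3% of all peaks, GCCNNNGGC in 19 (9.45%) against 8.99%, and AACCNGTT, the motif of Grainyhead-like factors, in 2 (0.995%) against 2.44%. The palindromic Hnf1 motif was in 0 of 201 and in 30 of all peaks. Such letters say nothing of binding.

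Over the 65 sums of sample and cell type, the gene activities of Scnn1g and Hsd11b2 had a Pearson correlation of 0.78, Scnn1b and Hsd11b2 0.74, Scnn1b and Scnn1g 0.73, Scnn1a and Scnn1b 0.51 and Scnn1a and Scnn1g 0.52 on the log2 scale. Nedd4l and Prss8 reached 0.80 and Sgk1 and Tsc22d3 0.53, whereas Sgk1 and Scnn1g had -0.34. These are descriptions, since the sums share samples and depth. The 5 genes most like Scnn1a were Gm33936 (0.85), Micall1 (0.84), Trib1 (0.82), Gm47851 (0.81) and Pla2g3 (0.80). Scnn1b was most like Cog7 (0.91), with which it shares peaks, then 9230102O04Rik (0.85), Mettl27, Esrp1 and Hkdc1 (each 0.82). Scnn1g was most like Tmem45b (0.88), Gm16035 and Bicdl2 (each 0.84), Clu (0.82) and Gm38392 (0.81).

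A wider set of 41 genes around aldosterone-regulated sodium transport, in 5 lists, was described in the same contrasts. In PC 15 of 40 tested genes were higher in the adult samples and 1 lower, beside 29.7% of all genes called, and for adult CNT and PC against the other types 23 of 41 were higher and 9 lower, beside 36.5%. Of the 9 genes for the receptor and its early targets, 5 rose in PC. These included the clock gene Per1 (0.85 ± 0.15), the deubiquitinase Usp2 (0.75 ± 0.17), the steroid receptor chaperone Fkbp5 (0.77 ± 0.18) and the zinc finger gene Zbtb16 (1.59 ± 0.14). The mineralocorticoid receptor gene Nr3c2 rose by 0.49 ± 0.16 in PC and was higher in adult CNT and PC than in the other types by 1.11 ± 0.08, where the list was evenly split, with 4 of 9 higher and 4 lower (median 0.02).

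Among the 7 proteases and inhibitors, Spint2, an inhibitor of channel-activating proteases, was the 1 of 6 tested that rose in PC, by 0.39 ± 0.13 (29.7% of all genes called). In adult CNT and PC 5 of 7 were higher, such as the matriptase gene St14 (1.96 ± 0.12), and the other 2 were lower, beside the 36.5% of all genes called. Of the 11 kinases, ligases and scaffolds, edgeR and DESeq2 each called 0 between stages in PC, with 3 at an unadjusted p under 0.05 (Mapkap1, Nedd4 and Ywhae), and 2 were higher and 2 lower in adult CNT and PC. The 8 genes of the sodium pump and potassium channels had 6 higher and 1 lower in PC, beside the 29.7% of all genes called there. The pump regulators Fxyd2 (2.03 ± 0.25) and Fxyd4 (1.10 ± 0.19) and the ROMK channel gene Kcnj1 (0.85 ± 0.18) were among those that rose, and the BK channel gene Kcnma1 fell (-0.72 ± 0.14). Of the 6 transcription regulators, 5 were higher in adult CNT and PC, including Elf5 (1.88 ± 0.14), Grhl2 (1.86 ± 0.09) and Tfap2b (1.76 ± 0.17). Elf5, a principal cell factor, rose in PC by 0.46 ± 0.14 and fell in CNT (-1.81 ± 0.27) and LOH (-2.03 ± 0.22). The list as a whole had 4 of 6 higher and 2 lower in CNT, where 25.0% of all genes were called. In LOH it had 4 higher and 1 lower, where 52.1% of all genes were called.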

How the data were processed

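The 5 snATAC-seq samples were used; the single-cell RNA tables and embeddings were not used here, and the bulk ATAC-seq was not analysed here. The deposited values were counts: a nucleus by peak matrix of open calls (0 or 1), made by the authors with Cell Ranger ATAC 1.1.0 on mm10, SnapATAC clustering with Harmony correction, and MACS2 peaks called per cluster and merged. Cell type names were taken from the deposited metadata; 664 nuclei of 2 further clusters stood apart from the 13 types. No doublet removal is given in the sources used here for the snATAC-seq nuclei and no doublet caller was run, so nuclei of mixed type may remain in every sum.

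Here, open calls were summed per sample and cell type, over single peaks and over the peaks of each gene (GENCODE M21 on GRCm38, gene body plus 2000 bp). Counts were tested with edgeR 4.0.16 (R 4.3.3; glmQLFit, glmQLFTest, TMM, filterByExpr with a minimum count of 10 and total of 15), for P0 against adult in each cell type, and between cell types and for interactions with sample as a block. DESeq2 1.42.0 was an alternative, besides its size factors in edgeR, unfiltered counts, at least 50 nuclei per sum in place of 20, thinned nuclei, promoter windows and left-out samples. The scripts were tested on simulated data. Sample depth ranged from 3371 to 6737 median open peaks per nucleus; intervals and limits from 0 counts (3 counts of the total) cover counting error only. An open call is not a read count, so depth per nucleus enters every share. All per-sample columns of the matrix were used. Python 3.11.15 with pandas 2.3.3 and scipy 1.17.1 made the tables.

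P0 and 8-week samples share replicate numbers, but same-numbered samples correlated by 0.02 to 0.26 in their deviations, with only 2 pairs, so the numbers were not taken as pairs.

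The members, gene lists and tests were chosen with earlier results of these data known, so a list's count is not independent evidence. Peaks described were those over annotated starts, the 2 most open in adult PC, and up to 3 per member with the largest called change between stages in PC or between segments.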

Additional observations from a re-analysis of the deposited data

Results flagged for a closer look

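The adult minus P0 difference of 4 members differed between segments by the interaction test (edgeR, Benjamini-Hochberg adjusted over all genes). For Scnn1b the difference in PC exceeded that in DCT by 2.22 ± 0.34 (adjusted p = 2.4e-05) and that in LOH by 2.14 ± 0.31 (adjusted p = 7.4e-07). For Scnn1g the values were 1.45 ± 0.36 (adjusted p = 0.0177) and 1.45 ± 0.26 (adjusted p = 3.03e-05). For Sgk1 they were 1.08 ± 0.26 (adjusted p = 0.0151) and 1.51 ± 0.18 (adjusted p = 1.99e-09), and for Hsd11b2 1.69 ± 0.38 (adjusted p = 0.00586) and 1.69 ± 0.24 (adjusted p = 3.77e-07). The directions differed in that Scnn1b, Scnn1g and Hsd11b2 had adult levels below P0 in LOH and above P0 in PC, by the group means. For Scnn1b the PC difference alone was not called (0.40 ± 0.23, adjusted p = 0.200), and its 3-week PC sample lay below both P0 samples. Left out singly, the P0 samples ended the DCT calls of Scnn1g (1.01 and 1.84), Sgk1 (1.14 and 1.10) and Hsd11b2 (1.33 and 2.04), and so did the second 8-week sample for Scnn1g (1.33) and Hsd11b2 (1.58). In thinned nuclei none of the 4 DCT calls was past the threshold and that of Sgk1 turned to -0.49, while 3 of the 4 LOH calls remained, that of Scnn1g (1.06) being lost. P0 DCT rested on 51 and 57 nuclei, and the principal cell marker list in DCT summed to 71.1 and 59.0 CPM at P0 and 21.6, 23.1 and 32.0 CPM in the adult samples. The connecting tubule list, higher in DCT than in CNT at P0, overlapped between stages in DCT. The part of either in these differences was not tested.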

How the results depend on the processing

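Of 94 alternative values of the counts of calls, 69 were within 1.5 times the value reported and 25 were not. Of 454 alternative values of 42 called gene differences, 370 kept their direction and side of the threshold, 81 kept the direction only and 3 turned, and 17 of the 42 were past the threshold in every setting run. Called gene differences fell short of the threshold or turned most often in nuclei thinned to 1000 open peaks and without P0 replicate 1, 18 in each. With thinning, which leaves far fewer calls to test, stage calls fell from 170 to 11 over peaks (93 tested) and from 39 to 10 over genes, in PC from 18 to 0 over peaks (8 tested) and from 6 to 2 over genes, segment calls from 54 to 5 over peaks and from 13 to 7 over genes, P0 calls for CNT and PC against the other types from 7 to 4, and interactions from 8 to 3. The values that turned in thinned nuclei were Tsc22d3 between stages in PC (-0.21), Scnn1g between stages in CNT (-0.32) and Sgk1 for the interaction of PC and DCT (-0.49). DESeq2 called 108 stage peaks. With no filter on low counts 0 PC peaks of members were called between stages, and 0 of all 278469 peaks tested. With promoter windows 5 interactions were called. The causes of these differences were not tested.

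Leaving out 1 sample at a time gave 62 to 224 stage peaks, 5 to 28 in PC, 14 to 42 stage genes, 2 to 7 in PC, 16 to 44 segment peaks, 8 to 12 segment genes, 5 to 6 adult members for CNT and PC against the other types and 5 to 10 interactions. The lowest stage values came without P0 replicate 1 (62 peaks, 14 genes) and P0 replicate 2 (78 and 17), and PC peaks were 28 without the 3-week sample. Segment peaks were 33 without 8-week replicate 1 and 16 without replicate 2, and segment genes 8 without replicate 1. In PCT the stage calls of Prss8, Sgk1 and Scnn1b, and in CNT those of Scnn1g and Tsc22d3, were lost without either P0 sample. The P0 contrast between cell types could not be repeated without a P0 sample, since no residual degrees of freedom were left.

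With the replicate number as a block, an alternative chosen after seeing the data, 155 stage peaks (14 in PC) and 35 stage genes (6 in PC) were called. Without the sample block in the other fits 39 segment peaks, 10 segment genes, 5 adult and 7 P0 members and 7 interactions were called. DESeq2 size factors moved the median of all genes by at most 0.06 on the log2 scale. Spearman in place of Pearson correlation kept 3, 3 and 2 of the 5 genes most like Scnn1a, Scnn1b and Scnn1g. Sums of as few as 39 nuclei limit single peaks most, and p-values between cell types carry the clustering of the same nuclei.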

Other observations

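A total of 664 nuclei lay in 2 clusters outside the 13 types. The cluster named PT_out in the metadata held 79 and 78 nuclei at P0, 52 at 3 weeks and 106 and 131 at 8 weeks. In these sums Tsc22d3 activity was 24.7 and 18.1 CPM at P0 and 72.4, 72.3 and 84.4 CPM in the adult samples, and Prss8 activity 79.9 and 92.5 against 119, 93.6 and 141 CPM. Every adult sample was thus above both P0 samples for each of these genes. The same held for Nedd4l and for Scnn1a, with 26.6 and 23.6 against 43.5, 53.2 and 77.5 CPM. Scnn1g went the other way, with 30.4 and 29.0 against 8.69, 14.9 and 15.7 CPM, and the remaining members overlapped. In PCT Scnn1a was not called between stages (-0.27 ± 0.22). How many of all genes separated by stage in this cluster was not counted, so these separations are not read as a result about the members. The cluster named NP_LOH held 1 nucleus at P0 and 56, 92 and 69 in the adult samples, where Scnn1a activity was 53.0, 58.8 and 58.2 CPM, below each adult LOH sample.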
